A study of Mus musculus with 11 samples.

Results

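The AP-1 and Egr immediate-early genes described here are 10 transcription factor genes. They are Fos, Fosb, Fosl1 and Fosl2 of the Fos family, Jun, Junb and Jund of the Jun family, the zinc finger genes Egr1 and Egr2, and Atf3. They were taken by symbol from a table of gene counts, in which all 10 stood among 21684 genes. All 10 also passed the filter on low counts, which left 13332 genes for testing.

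RNA was sequenced from the established fibroblast line NIH/3T3, made from mouse embryos. The groups were wild-type cells (WT, 2 libraries) and cells with a knockout (KO) of Xap5, Nono or Sox5 (3 libraries each). Xap5, whose mouse symbol is Fam50a, encodes a nuclear protein, Nono a paraspeckle protein that binds RNA and DNA, and Sox5 an HMG-box transcription factor. Before harvest, every group was grown sparsely in serum and then kept 24 h without it, so no group shows the response to serum itself. The labels name no separate clones, so each knockout was taken as 1 line, and the loss of the gene cannot be told apart from other features of that line. Nothing in the labels says that replicates came from separate cultures, so the p-values measure the spread between these libraries, which may be technical.

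Immediate-early genes are switched on within minutes when serum or stress reaches a resting cell, before any new protein is needed, and most of their RNAs decay quickly. Fos and Jun proteins pair through leucine zippers to form AP-1, a factor that binds DNA, in which Jun proteins can also pair with each other while Fos proteins need a Jun partner. Egr proteins bind GC-rich sites through zinc fingers, and resting fibroblasts keep the classical members, Fos above all, at low levels.

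Library depth ran from 30205878 to 43498383 counts. RNA of the targeted gene was at 12.1% of the WT mean in Xap5 KO (Fam50a), 8.99% in Nono KO and 28.1% in Sox5 KO. Sox5 RNA was also at 28.7% of WT in Xap5 KO and 16.3% in Nono KO. All 10 fibroblast markers were detected in every group, at levels given in CPM, the usual depth-scaled count. They summed to 23622.5 to 23696 CPM in WT, 18097 to 19334 in Xap5 KO, 47300 to 52121 in Nono KO and 18851 to 19287 in Sox5 KO. The 6 epithelial markers summed to at most 0.397 CPM, and Krt8 and Krt18 were at 0 in every group. The 6 endothelial markers summed to 13.5 to 15.7 CPM in WT, 33.5 to 35.7 in Xap5 KO, 2.95 to 4.81 in Nono KO and 7.92 to 10.8 in Sox5 KO, led by Vwf (34.2 CPM in Xap5 KO and 1.97 in Nono KO) and with Emcn at 0 in every group. The 6 leukocyte markers summed to 7.25 to 10.9 CPM in Nono KO, led by Ptprc at 6.66 CPM, and to at most 3.38 CPM in the other groups, with Cd3e at 0 throughout. Those of neurons lay between 12.4 and 23.3 CPM and those of skeletal muscle between 0.645 and 4.04 CPM. Mitochondrial genes took 6.06% to 6.92% of the counts in WT and Sox5 KO, 7.10% to 7.98% in Nono KO and 7.89% to 10.3% in Xap5 KO. Among the 10 members, WT replicate 2 was the lower of the WT pair for 8, and Nono KO replicate 3 was the lowest of its group for 6.

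Jun, the founding Jun gene, and Junb, its close relative, were lower than in WT in all 3 knockouts. Jun was 3.15-fold, 1.49-fold and 3.52-fold lower in Xap5, Nono and Sox5 KO. Several of the other members differed between knockouts: Fosl2 rose in Nono KO (2.01-fold), Atf3 fell in Xap5 KO (2.45-fold), and Fos fell in Sox5 KO (4.92-fold). No difference between knockouts was called for Egr2 or Fosl1. A gene was called changed at an adjusted p under 0.05 by the quasi-likelihood test of edgeR, Benjamini-Hochberg adjusted over all tested genes.

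Against WT, 7 of the 10 members were called in Xap5 KO, 2 higher and 5 lower, where 45.5% of all tested genes were called (23.2% higher, 22.3% lower). In Nono KO, 6 were called, 2 higher and 4 lower, against 48.6% of all tested genes (23.5% higher, 25.1% lower). In Sox5 KO, 6 were called, none higher and 6 lower, against 60.9% of all tested genes (30.6% higher, 30.3% lower). As shares of the members these are 70%, 60% and 60%, above the background in Xap5 KO and Nono KO and near it in Sox5 KO, and nothing particular to the members is read from them. The median log2 fold change of the members was -0.69, -0.21 and -0.58 in Xap5, Nono and Sox5 KO, beside 0.00, -0.02 and -0.01 for all tested genes. Changes of at least 2-fold were called for 2, 2 and 3 members in Xap5, Nono and Sox5 KO, where 10.3%, 11.2% and 17.2% of all tested genes met that rule. The libraries of knockout and WT did not overlap for 8, 6 and 7 members in the same order, beside 63.7%, 65.5% and 75.8% of all tested genes.

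The members called lower in all 3 knockouts were Jun, Junb and Egr2, a pattern held by 7.61% of all tested genes, and the Egr2 calls rested on WT replicate 1. No member was called higher in all 3, a pattern held by 8.33%. Jund and Egr1 were called in opposite directions in different knockouts, and Fos, Fosb, Fosl1 and Atf3 were each called in 1 knockout. The 3 comparisons share the WT libraries, so likeness between them is partly built in. Each knockout was therefore also compared with the others directly.

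**Figure D1:**
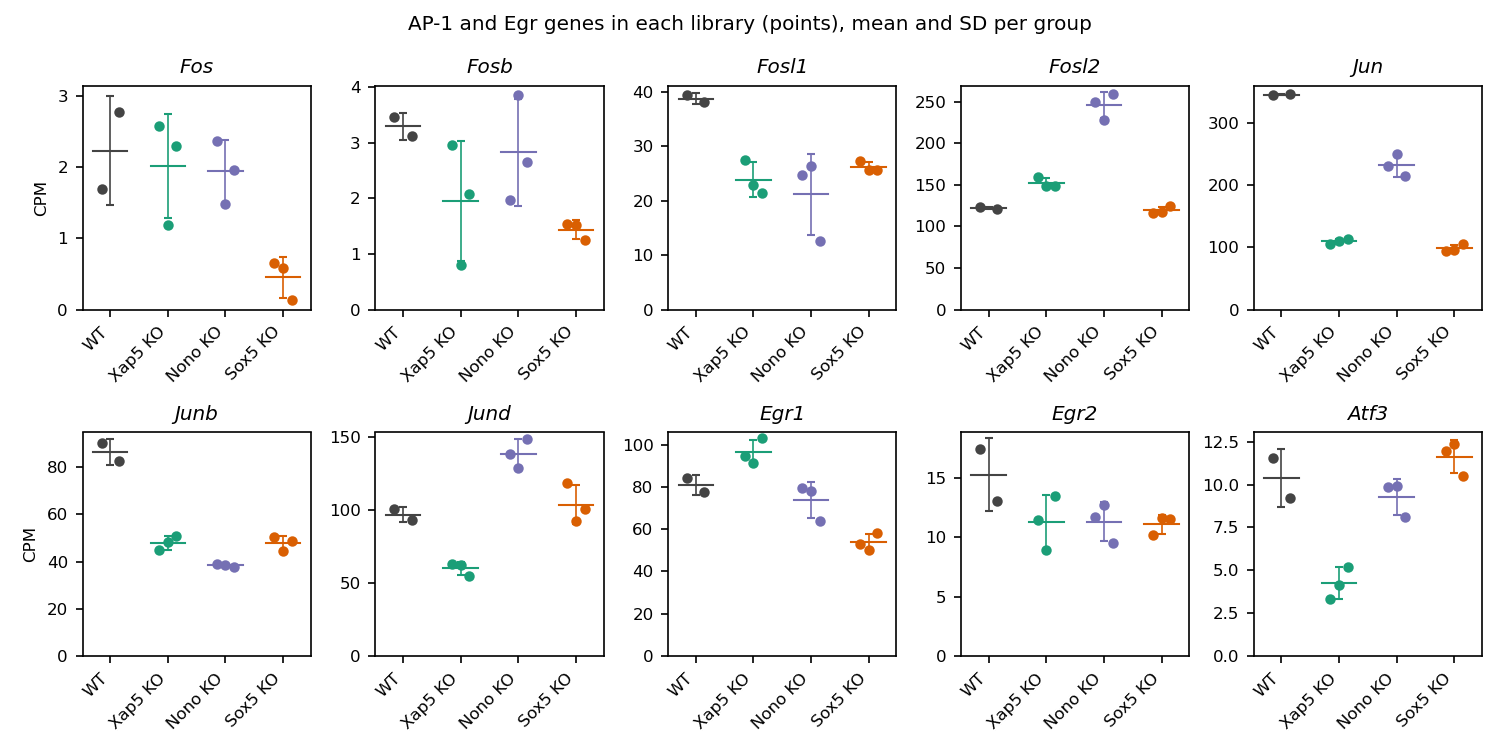
Level of each of the 10 genes in CPM (vertical axes from 0, on a separate scale per gene) in the 11 libraries (points), grouped by genotype, with the group mean (line) and SD (bars; n = 2 for WT, n = 3 for each knockout). Jun lies at 346 and 347 CPM in WT and at most at 251 CPM in a knockout library, while the highest of the 3 Fos values in Sox5 KO is 0.649 CPM.

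**Figure D2:**
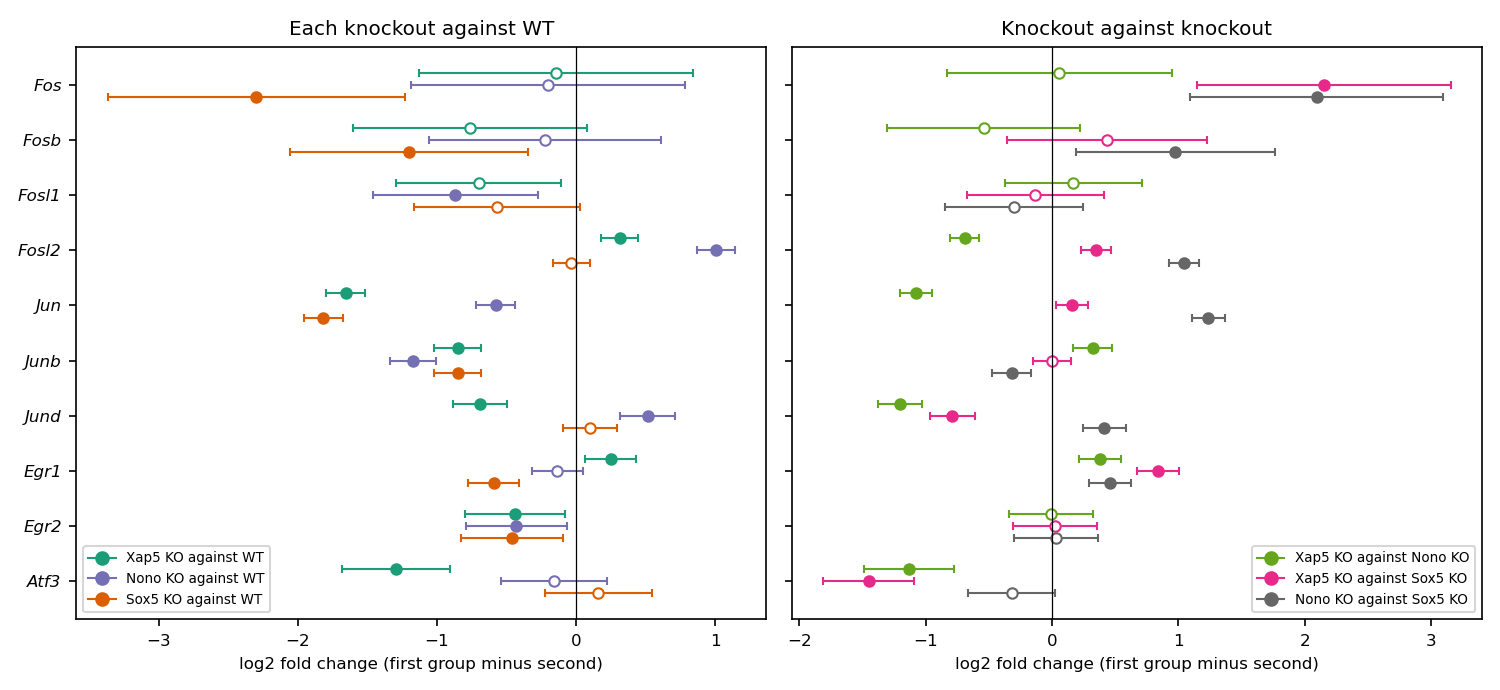
Log2 fold changes of the 10 genes with 95% intervals from edgeR's quasi-likelihood fit, each knockout against WT (left) and each knockout against another (right), where filled circles were called at an adjusted p under 0.05. Jun and Junb lie left of 0 in all 3 comparisons with WT, whereas Jund lies at -0.69 in Xap5 KO and 0.52 in Nono KO.

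Levels of different genes can be compared only per length, here as CPM per kilobase of the exons joined over all transcripts. In WT the Jun genes led, with Jun at 108.6 ± 0.355 CPM per kb (SD, n = 2), Jund at 57.9 ± 3.07 and Junb at 37.6 ± 2.38. Fosl1 at 19.1 and Egr1 at 18.1 CPM per kb followed, and their libraries overlapped. Next stood Fosl2 at 12.6 CPM per kb, then Atf3 at 4.82 and Egr2 at 4.50, which overlapped each other. By the length of the longest transcript the Fosl2 mean was 18.7 CPM per kb, which lay between the Egr1 libraries (17.3 and 18.8). The length of Egr1 was the same either way. Fos at 0.947 and Fosb at 0.529 CPM per kb were last, so the classical Fos gene stood at the bottom of the order in starved WT cells. In each knockout Jund ranked above Jun, overlapping it in Xap5 KO (35.9 and 34.5 CPM per kb) and Nono KO (82.8 and 72.8) but not in Sox5 KO (62.1 and 30.9). Fosl2 moved up to the third rank in Nono KO, at 25.4 ± 1.64 CPM per kb (SD, n = 3).

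Jun (ENSMUSG00000052684, chromosome 4, 1 exon) encodes the Jun protein that forms AP-1 with any Fos member and also pairs with itself. Its level was 346 and 347 CPM in the WT libraries. Xap5 KO libraries held 105, 111 and 114 CPM, those of Nono KO 231, 251 and 215 CPM, and those of Sox5 KO 94.4, 95.9 and 104.9 CPM. Every knockout library was below both WT libraries, and the Nono KO libraries stood between WT and the other knockouts. The log2 fold change against WT was -1.66 for Xap5 KO (SE 0.07, adjusted p = 2.44e-14), -0.58 for Nono KO (SE 0.07, adjusted p = 3.20e-07) and -1.82 for Sox5 KO (SE 0.07, adjusted p = 3.51e-15). Between Xap5 KO and Nono KO the difference in Jun was -1.08 (adjusted p = 5.62e-12). Jun in Nono KO exceeded Jun in Sox5 KO by 1.24 (adjusted p = 3.15e-13). The difference between Xap5 KO and Sox5 KO was 0.16 (adjusted p = 0.0293), and it was no longer called without Xap5 KO replicate 2 or 3 or Sox5 KO replicate 1 or 2 (0.13 to 0.15). Junos overlaps Jun on the opposite strand, as Gm11175 does Jund, and neither was analysed here. In bulk RNA, fewer cells with a transcript and less of it per cell cannot be told apart.

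Junb (ENSMUSG00000052837, chromosome 8, 1 exon) encodes a Jun protein that activates AP-1 targets more weakly than Jun. WT libraries stood at 90.3 and 82.6 CPM. Xap5 KO libraries stood at 44.9, 48.1 and 50.9 CPM, Nono KO at 38.9, 38.5 and 37.8 CPM, and Sox5 KO at 50.4, 44.7 and 48.7 CPM. All 9 knockout libraries lay below WT, and those of Nono KO were below every other library. Junb fell by 0.85 on the log2 scale in Xap5 KO (SE 0.08, adjusted p = 2.15e-08), by 1.17 in Nono KO (SE 0.08, adjusted p = 1.07e-10) and by 0.85 in Sox5 KO (SE 0.08, adjusted p = 9.30e-09). Junb was higher in Xap5 KO than in Nono KO by 0.32 (adjusted p = 0.000963). It was lower in Nono KO than in Sox5 KO, at -0.32 (adjusted p = 0.000744), though an offset for GC content and transcript length ended that call (-0.12, adjusted p = 0.166). Between Xap5 KO and Sox5 KO the difference was 0.00, with a 95% interval from -0.15 to 0.15 on the log2 scale, but the same offset made it a call (0.18, adjusted p = 0.0412). The exons of Prdx2, a peroxiredoxin gene on the opposite strand, overlap Junb, and the handling of strand is not given in the sources used here. Prdx2 changed by -0.38, -0.27 and 0.61 in Xap5, Nono and Sox5 KO. It thus fell as Junb did in Xap5 KO and Nono KO and rose in Sox5 KO. The part of Prdx2 reads in the Junb values was not tested.

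Jund (ENSMUSG00000071076, chromosome 8, 1 exon) encodes the Jun protein that resting fibroblasts keep at a steady level. WT libraries gave 100.2 and 92.9 CPM, and Xap5 KO libraries 62.6, 62.4 and 54.7 CPM. Nono KO libraries gave 138, 128 and 148 CPM, and Sox5 KO libraries 118, 92.1 and 100.3 CPM. The Xap5 KO libraries were all below WT, the Nono KO libraries all above, and the Sox5 KO libraries overlapped WT. Jund fell by 0.69 in Xap5 KO (SE 0.09, adjusted p = 6.27e-06) and rose by 0.52 in Nono KO (SE 0.09, adjusted p = 0.000149). In Sox5 KO its log2 fold change was 0.10 (SE 0.09, 95% interval -0.09 to 0.30, adjusted p = 0.362). An offset for GC content and transcript length turned the Sox5 KO value into a call (0.23, adjusted p = 0.0169) and moved the values of Xap5 KO to -0.41 and of Nono KO to 0.86, both still called. At 67.2% GC, Jund had the highest GC content of the 10 genes. The difference between Xap5 KO and Nono KO was itself called (-1.21, SE 0.08, adjusted p = 8.62e-10), as were those between Xap5 KO and Sox5 KO (-0.79) and between Nono KO and Sox5 KO (0.42, or 0.63 with the offset).

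The make-up of the Jun family followed from these changes. The 3 Jun genes summed to 204 CPM per kb in WT (200.5 and 207.7), and to 44.7% of that, 84.4% and 55.7% in Xap5, Nono and Sox5 KO. Jun took 53.2% of the sum in WT and 37.8%, 42.3% and 27.2% in Xap5, Nono and Sox5 KO. Jund took 28.4% in WT and 39.4%, 48.1% and 54.4% in Xap5, Nono and Sox5 KO. Junb held 18.4% in WT and 18.3% in Sox5 KO, against 22.8% in Xap5 KO and 9.68% in Nono KO. In every library of Sox5 KO Jund exceeded Jun per kb, whereas Jun stood above Jund in Xap5 KO replicate 3 (35.7 against 32.8 CPM per kb) and Nono KO replicate 2 (78.7 against 76.9). The changes behind the shares differed in direction for Jund alone. Jun and Junb fell in all 3 knockouts, while Jund was not called in Sox5 KO, rose in Nono KO and fell in Xap5 KO.

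**Figure D3:**
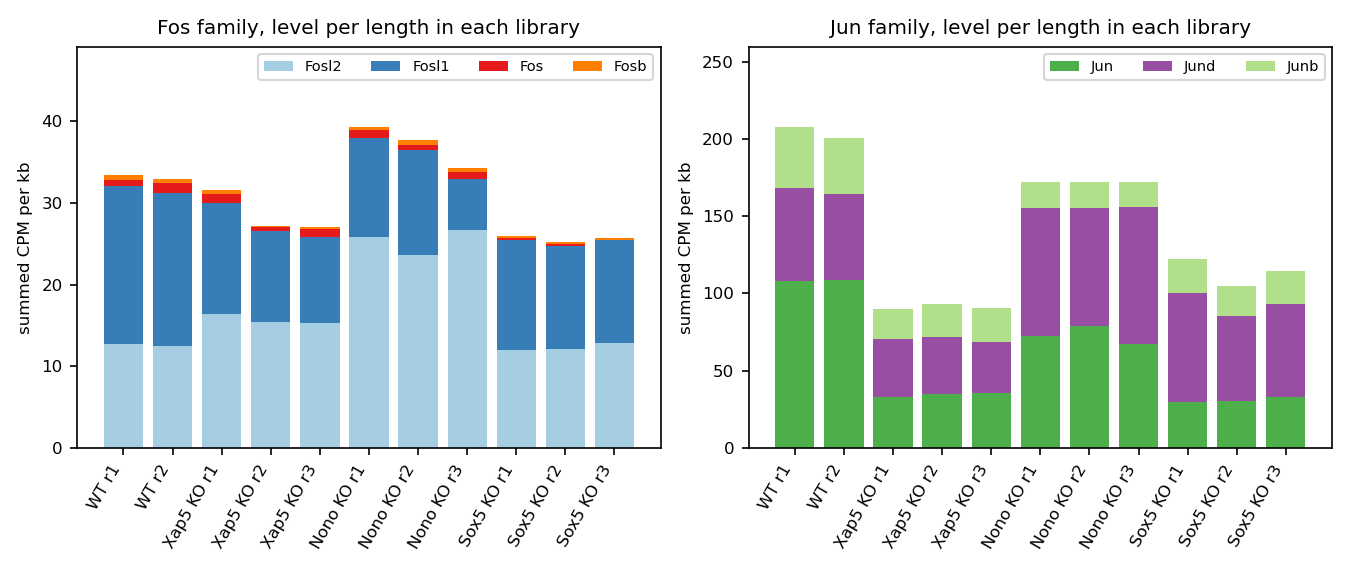
Summed level in CPM per kilobase of the Fos family (left) and the Jun family (right) in each of the 11 libraries (bars from 0, r1 to r3 for the replicates), with a colour for each gene. The Jun part of the right-hand bars shrinks in every knockout, and the Fosl2 part of the left-hand bars is tallest in Nono KO.

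Fos (ENSMUSG00000021250, chromosome 12, 4 exons) encodes the founding Fos protein, an activating partner of Jun. It was low in every library, with 68 and 122 counts in WT (1.69 and 2.77 CPM), 100, 49 and 89 counts in Xap5 KO (2.57, 1.19 and 2.29 CPM), 96, 61 and 71 counts in Nono KO (2.37, 1.49 and 1.96 CPM) and 21, 17 and 4 counts in Sox5 KO (0.649, 0.576 and 0.128 CPM). Only the Sox5 KO libraries lay apart, below all others, while those of Xap5 KO and Nono KO overlapped WT. Fos fell by 2.30 on the log2 scale in Sox5 KO (SE 0.51, 95% interval -3.37 to -1.23, adjusted p = 0.000565). Leaving out each library in turn gave -2.67 to -1.86, called each time. In Xap5 KO the log2 fold change was -0.14 (SE 0.47, adjusted p = 0.834), and in Nono KO it was -0.20 (SE 0.47, adjusted p = 0.756). The 95% intervals of these values were wide, -1.13 to 0.84 and -1.19 to 0.78, and without WT replicate 2 both values turned positive (0.25 and 0.21). Fos in Sox5 KO was also below Xap5 KO (a difference of 2.15, adjusted p = 0.000559) and below Nono KO (4.27-fold, adjusted p = 0.000697).

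Fosb (ENSMUSG00000003545, chromosome 7, 4 exons), a relative of Fos that shares its partners, had 3.47 and 3.13 CPM in the WT libraries and 1.55, 1.52 and 1.24 CPM in those of Sox5 KO. Xap5 KO libraries had 2.96, 0.803 and 2.09 CPM, and Nono KO libraries 1.97, 3.87 and 2.65 CPM. The Sox5 KO libraries were close together and under both WT libraries, whereas the Xap5 KO libraries differed from each other by 3.68-fold. Fosb fell by 1.20 in Sox5 KO (SE 0.41, adjusted p = 0.0157), a call lost without WT replicate 1 (adjusted p = 0.0722) or Sox5 KO replicate 3 (adjusted p = 0.0549). Its log2 fold change was -0.76 in Xap5 KO (SE 0.40, adjusted p = 0.132) and -0.22 in Nono KO (SE 0.40, adjusted p = 0.684). Without Xap5 KO replicate 1 the Xap5 KO value became -1.21 and was called (adjusted p = 0.0257). Nono KO exceeded Sox5 KO by 0.98 (adjusted p = 0.0294), a call lost without Nono KO replicate 2 (0.68, adjusted p = 0.164) or any 1 of the Sox5 KO libraries (adjusted p = 0.0579 to 0.0954).

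Fosl1 (ENSMUSG00000024912, chromosome 19, 4 exons) encodes Fra-1, a Fos-related protein without the activation domain of Fos that stays high in growing and motile fibroblasts. WT libraries had 39.4 and 38.1 CPM. Xap5 KO libraries had 27.5, 22.8 and 21.3 CPM, Nono KO 24.6, 26.3 and 12.7 CPM, and Sox5 KO 27.2, 25.6 and 25.7 CPM. All 9 knockout libraries were below both WT libraries, and Nono KO replicate 3 was the lowest of all libraries. The log2 fold change was -0.70 in Xap5 KO (SE 0.26, adjusted p = 0.056), -0.87 in Nono KO (SE 0.26, adjusted p = 0.0223) and -0.57 in Sox5 KO (SE 0.26, adjusted p = 0.0912), so the call held in Nono KO alone. Which knockouts were called depended on single libraries and on the fit. Without Nono KO replicate 3, Fosl1 was called in Xap5 KO (adjusted p = 1.29e-05), in Sox5 KO (adjusted p = 8.01e-05) and in Nono KO (-0.60, adjusted p = 0.000198). Leaving out Nono KO replicate 2 also brought the Xap5 KO call (adjusted p = 0.0348), and leaving out WT replicate 1 or 2 ended the Nono KO call (adjusted p = 0.0908 and 0.0795). Fitting only the 2 groups compared called Fosl1 in Xap5 KO (adjusted p = 0.00015) and Sox5 KO (adjusted p = 1.21e-05) but not in Nono KO (adjusted p = 0.141). The Xap5 KO value was also called by DESeq2 (adjusted p = 0.0302), with library totals alone (adjusted p = 0.0341) and with a replicate block (adjusted p = 0.0437). Library totals alone (adjusted p = 0.0394) and the offset (adjusted p = 0.0466) brought the Sox5 KO call. The differences between knockouts were 0.17, -0.13 and -0.30, and none was called. Ccdc85b overlaps Fosl1 on the opposite strand, and its log2 fold changes were -0.10, -0.37 and 0.30 in Xap5, Nono and Sox5 KO.

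Fosl2 (ENSMUSG00000029135, chromosome 5, 4 exons) encodes Fra-2, the other Fos-related protein of this kind. WT libraries had 123 and 121 CPM, and Xap5 KO libraries 159, 149 and 148 CPM. Nono KO libraries had 249.99, 228 and 259 CPM, and Sox5 KO libraries 117, 117 and 124 CPM. The Nono KO libraries were above all others, the Xap5 KO libraries were above WT, and the Sox5 KO libraries overlapped WT. Fosl2 rose in Nono KO by 1.01 (SE 0.06, adjusted p = 3.71e-11) and by 0.32 in Xap5 KO (SE 0.06, adjusted p = 0.000348). The Sox5 KO value was -0.03 (SE 0.06, 95% interval -0.17 to 0.10, adjusted p = 0.668), but with an offset for GC content and transcript length it became 0.42 and was called (adjusted p = 7.21e-06), and with library totals alone it was called in the other direction (-0.15, adjusted p = 0.0476). The same offset ended the difference between Xap5 KO and Sox5 KO, which was 0.35 (adjusted p = 1.66e-05) without it and 0.02 (adjusted p = 0.826) with it. Nono KO exceeded Xap5 KO by 0.69, given as -0.69 for Xap5 KO against Nono KO (adjusted p = 1.57e-09), and Sox5 KO by 1.04 (adjusted p = 1.37e-12).

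Summed per length, the Fos family stood at 33.1 CPM per kb in WT, and at 86.4% of that, 112% and 77.2% in Xap5, Nono and Sox5 KO. Fosl1 held 57.5% of the sum in WT and 40.9%, 27.8% and 50.3% in Xap5, Nono and Sox5 KO. Fosl2 held 38.0% in WT and 55.0%, 68.8% and 48.1% in Xap5, Nono and Sox5 KO. The larger share thus passed from Fosl1 to Fosl2 in Xap5 KO and Nono KO, and also in Sox5 KO when the longest transcript stood in for the joined exons (55.5% against 42.7%). Fos and Fosb together made only a small part in every group: Fos held 2.86% in WT and 0.749% in Sox5 KO, and Fosb 1.60% and 0.900%.

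Egr1 (ENSMUSG00000038418, chromosome 18, 2 exons) encodes the zinc finger factor that serum induces through SRF. WT libraries held 84.4 and 77.6 CPM, and Xap5 KO libraries 94.4, 91.4 and 103 CPM. Nono KO libraries held 79.3, 78.1 and 64.0 CPM, and Sox5 KO libraries 53.1, 50.3 and 58.0 CPM. The Sox5 KO libraries lay below all others and the Xap5 KO libraries above all others. Egr1 fell by 0.59 in Sox5 KO (SE 0.09, adjusted p = 6.55e-06) and rose by 0.25 in Xap5 KO (SE 0.09, adjusted p = 0.0269). The Xap5 KO call was lost without WT replicate 1 (adjusted p = 0.0555), WT replicate 2 (adjusted p = 0.243) or Xap5 KO replicate 3 (adjusted p = 0.109), and under scaling by library totals alone (0.20, adjusted p = 0.0899). In Nono KO the log2 fold change was -0.13 (SE 0.09, adjusted p = 0.23), and with library totals alone it was -0.30 and called (adjusted p = 0.0102). The offset for GC content and transcript length gave Egr1 values of 0.39 for Xap5 KO and -0.36 for Sox5 KO, each still past the threshold. All 3 differences between knockouts were called: Xap5 KO exceeded Nono KO by 0.38 (adjusted p = 0.000364) and Sox5 KO by 0.84 (adjusted p = 1.14e-08), and Nono KO exceeded Sox5 KO by 0.46 (adjusted p = 4.23e-05).

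Egr2 (ENSMUSG00000037868, chromosome 10, 2 exons), a relative of Egr1 known from Schwann cells and lymphocytes, had 17.5 and 13.1 CPM in the WT libraries. Libraries of Xap5 KO had 11.4, 8.93 and 13.5 CPM, those of Nono KO 11.7, 12.8 and 9.53 CPM, and those of Sox5 KO 10.2, 11.6 and 11.5 CPM. WT replicate 1 stood above every other library, and WT replicate 2 lay within the range of Xap5 KO. The log2 fold changes were alike, -0.44 in Xap5 KO (SE 0.17, adjusted p = 0.0459), -0.43 in Nono KO (SE 0.17, adjusted p = 0.0471) and -0.46 in Sox5 KO (SE 0.18, adjusted p = 0.0285). All 3 calls rested on WT replicate 1, without which the values were -0.23, -0.20 and -0.25 and none was called (adjusted p = 0.445, 0.493 and 0.355). Leaving out other single libraries also ended the calls in Xap5 KO (Xap5 KO replicates 1 and 2, Nono KO replicate 1, each of Sox5 KO), in Nono KO (Nono KO replicates 1 and 3, each of Sox5 KO) and in Sox5 KO (Sox5 KO replicate 1). Egr2 in Xap5 KO and Nono KO was not called by DESeq2 (adjusted p = 0.0505 and 0.0671), in 2-group fits (adjusted p = 0.0626 and 0.0618) or with a replicate block (adjusted p = 0.0573 and 0.0599). The differences between knockouts were at most 0.03 in size, with 95% intervals that lay within -0.34 to 0.36 on the log2 scale.

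Atf3 (ENSMUSG00000026628, chromosome 1, 4 exons) encodes a stress-induced leucine zipper protein that pairs with Jun proteins and mostly represses. WT libraries stood at 11.6 and 9.19 CPM, Xap5 KO at 3.35, 4.16 and 5.20 CPM, Nono KO at 9.84, 9.94 and 8.09 CPM, and Sox5 KO at 11.9, 12.4 and 10.5 CPM. The Xap5 KO libraries were below all others, and both other knockouts overlapped WT. Atf3 fell by 1.29 in Xap5 KO (SE 0.19, adjusted p = 7.78e-06). Its log2 fold change was -0.16 in Nono KO (SE 0.18, 95% interval -0.54 to 0.22, adjusted p = 0.508) and 0.16 in Sox5 KO (SE 0.18, 95% interval -0.22 to 0.55, adjusted p = 0.466). Atf3 in Xap5 KO was also below Nono KO (-1.13, adjusted p = 1.04e-05) and below Sox5 KO (-1.45, adjusted p = 2.59e-07).

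Compared directly, Xap5 KO and Nono KO differed in 6 members (53% of all tested genes were called), Xap5 KO and Sox5 KO in 6 (61.6%), and Nono KO and Sox5 KO in 7 (63.5%). These counts are near the background. At least 2-fold were 3, 2 and 3 of them, beside 11.1%, 15% and 17% of all tested genes. Jund, Egr1 and Jun differed in all 3 pairs of knockouts, and Fosl2 did so as well, with the exceptions given above for Fosl2 and Jun between Xap5 KO and Sox5 KO. Egr2 and Fosl1 differed in none.

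The promoters of the 3 genes lower in every knockout, and of Fos, whose fall was the largest, are shown here so that their sequences can be set beside the values. They come from RefSeq on GRCm38.p6, a different build from that of the counts, and a window was found for 8 of the 10 members, not for Fosl1 or Egr1. Each window holds the 250 bases before the annotated start, 5′ to 3′ on the strand of the gene. Jun is at chr4:95052223-95052472 on the minus strand, Junb at chr8:84978749-84978998 on the minus strand and Fos at chr12:85473640-85473889 on the plus strand. For Egr2, which has several annotated starts, 30 bases are given at chr10:67537793-67537822 on the plus strand, 76 to 47 bases before 1 of them. Capitals mark the TGACATCA of Jun, the TGACGT of Fos, and in Egr2 a CArG box followed by the same half-site on the other strand, while none of these matches lies in the Junb window.
Jun: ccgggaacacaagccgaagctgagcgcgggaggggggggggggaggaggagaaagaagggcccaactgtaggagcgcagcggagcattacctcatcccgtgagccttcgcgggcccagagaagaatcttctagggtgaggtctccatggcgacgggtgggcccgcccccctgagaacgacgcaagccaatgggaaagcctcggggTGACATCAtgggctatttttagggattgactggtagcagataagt
Junb: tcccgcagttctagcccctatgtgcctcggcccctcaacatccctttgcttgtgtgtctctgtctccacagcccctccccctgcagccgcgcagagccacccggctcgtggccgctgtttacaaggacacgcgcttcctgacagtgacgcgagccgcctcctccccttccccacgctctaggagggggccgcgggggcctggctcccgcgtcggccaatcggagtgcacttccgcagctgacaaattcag
Fos: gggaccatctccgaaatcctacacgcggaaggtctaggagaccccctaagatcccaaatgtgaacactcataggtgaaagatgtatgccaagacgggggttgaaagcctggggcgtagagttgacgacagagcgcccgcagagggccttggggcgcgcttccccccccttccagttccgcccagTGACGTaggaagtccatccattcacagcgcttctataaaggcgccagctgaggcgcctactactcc
Egr2: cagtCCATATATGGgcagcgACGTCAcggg

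The searched motifs were read on both strands and are descriptions of letters, not of binding. A member counted as holding a motif if any of its windows did, and Egr2 had several windows. The percentages are of single windows, so the 2 are not strictly alike. The Jun-type site TGACNTCA, known from the Jun promoter, was found in Jun alone, 45 to 38 bases before the start, and in 7.49% of 32851 windows of the same length. The cAMP response half-site TGACGT was found in Fos (66 to 61 bases before the start), Egr2 and Atf3, and in 6.47% of windows. It overlaps the full element TGACGTCA, which no member window held and 1.55% of all windows did. The CArG box, the site known to bind SRF, was found in Egr2 alone of the 8 members with a window, and in 1.47% of windows. The search did not cover Fosl1, Egr1 or bases farther upstream than 250, so motifs there would be missed. The AP-1 site TGANTCA was found in no member window and in 6.75% of all windows. Fosb and Fosl2 held the Egr site GCGNGGGCG (4.7% of windows), which overlapped a GC box, GGGCGG, in both. The GC box was found in 6 members and 32.7% of windows. The CCAAT box was the 1 searched motif found in all of Jun, Junb and Egr2, but it was found in 33.8% of all windows as well. The Jund window held none of these motifs, and it lies upstream of the start that GENCODE M21 gives.

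Genes whose pattern over the 11 libraries was most like that of a member were ranked by the root mean square difference of log2 CPM after centring each gene, among genes with an SD over 0.5. The 4 members with such a spread were Fos, Fosb, Jun and Atf3. Nearest to Jun were Sned1 (a difference of 0.15), Nherf2 (0.16) and Thsd7a (0.18), beside a median of 0.83 over all genes ranked. Sned1 changed by -1.92, -0.79 and -1.90 on the log2 scale in Xap5, Nono and Sox5 KO. Nearest to Atf3 were Lacc1 (0.17), Fam131b (0.21) and Ednra (0.22), beside a median of 0.73. Nearest to Fos were Cplane2 (0.31), Siglec1 (0.41) and Cage1 (0.46), with a median of 1.22, and nearest to Fosb were Tnfrsf18 (0.39), Tmem220 (0.39) and Xkr5 (0.40), with a median of 0.75. Cplane2 was low, at a mean log2 CPM of -0.96. Tnfrsf18 changed by -0.08, 0.09 and -0.58 in Xap5, Nono and Sox5 KO, where Fosb changed by -0.76, -0.22 and -1.20. Among the 10 members themselves, Fosb was nearest to Jun (0.54) and to Fos (0.93), farther than the genes named.

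Other immediate-early genes moved in both directions. Of 30 tested, 15 were higher and 7 lower in Xap5 KO, 13 and 6 in Nono KO, and 9 and 12 in Sox5 KO. That was 73.3%, 63.3% and 70% of those tested, beside 45.5%, 48.6% and 60.9% of all tested genes. The shares of this and the following lists were not tested against that background, and nothing particular to a list is read from them. The median log2 fold changes of these 30 genes were 0.35, 0.15 and -0.15, and without WT replicate 1 only 14 were called in Xap5 KO. Ccn1, a secreted matrix protein gene, rose by 2.47, 2.21 and 2.13 in Xap5, Nono and Sox5 KO. Plk2, a kinase gene, rose by 1.76, 2.47 and 1.02, while Klf10, a TGF-beta-induced zinc finger gene, changed by -0.37, -0.80 and -1.66 in the same order, all called, though the Klf10 call in Xap5 KO was lost without WT replicate 1 (adjusted p = 0.0618). Egr4 was not tested, with at most 8 counts in a library.

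Among 9 tested leucine zipper partners of AP-1, 4 were higher and 3 lower in Xap5 KO, 4 and 0 in Nono KO, and 3 and 2 in Sox5 KO, with median log2 fold changes of -0.02, 0.30 and 0.00. Their called shares were 77.8%, 44.4% and 55.6%, beside 45.5%, 48.6% and 60.9% of all tested genes. With library totals alone 8 were called in Nono KO, and without WT replicate 2 only 3 in Sox5 KO. Atf4, the factor of the integrated stress response, rose by 0.57, 1.25 and 1.32 in Xap5, Nono and Sox5 KO. Jdp2, which encodes a repressor that pairs with Jun, rose by 0.62 in Xap5 KO and 1.45 in Nono KO, and its value in Sox5 KO was 0.00, which the offset for GC content and transcript length turned into a called decrease (-0.23, adjusted p = 0.0199). Maff, which is also on the list of immediate-early genes, and Mafk, both small Maf genes, rose in all 3 knockouts by 0.32 to 0.54. In Sox5 KO the Maff call was lost with the offset (0.18, adjusted p = 0.168), with library totals alone (0.21, adjusted p = 0.093) and without WT replicate 1 (0.19, adjusted p = 0.24), and the Mafk call without WT replicate 2 (0.26, adjusted p = 0.0729).

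Upstream of these genes, Srf, whose protein binds the CArG boxes of Fos and Egr genes, rose by 0.97, 0.75 and 0.80 in Xap5, Nono and Sox5 KO. Its coactivator gene Mrtfb fell in all 3 knockouts, with log2 fold changes of -0.20, -0.22 and -1.26 in Xap5, Nono and Sox5 KO, but not under every alternative in Xap5 KO and Nono KO. Under the offset for GC content and transcript length the values were 0.00 (adjusted p = 0.998), -0.077 (adjusted p = 0.352) and -0.61, the last still called. Without WT replicate 2 Mrtfb was called neither in Xap5 KO (adjusted p = 0.198) nor in Nono KO (adjusted p = 0.158), and without Xap5 KO replicate 3 not in Xap5 KO (adjusted p = 0.0593). Creb1, whose protein binds the cAMP response element, fell as well (-0.30, -0.53 and -0.82, the last -0.23 with the offset). The SRF list of 8 genes held Creb1 and Crem besides Srf and its cofactors. Of these genes, 3 were higher and 3 lower in Xap5 KO, 2 and 3 in Nono KO, and 1 and 4 in Sox5 KO. Their medians were 0.13, -0.08 and -0.25. The MAP kinase list, with 17 tested genes, also held kinases above and below the MAP kinases. Here 7 were higher and 6 lower in Xap5 KO, 5 and 8 in Nono KO, and 8 and 5 in Sox5 KO. The medians were 0.06, -0.09 and 0.19. Called shares were 75%, 62.5% and 62.5% of the SRF list and 76.5% of the MAP kinase list in each knockout. Over all tested genes they were 45.5%, 48.6% and 60.9%. Braf, a kinase gene at the head of the ERK cascade, fell in all 3 knockouts (-0.39, -0.41 and -0.997, the last -0.31 with the offset). Mapk11, on the same list, rose in all 3 (0.86, 0.48 and 0.77). With library totals alone its Nono KO value was 0.32 and not called (adjusted p = 0.0708).

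The feedback regulators of MAP kinase signalling showed 3 genes higher and 8 lower of 17 in Xap5 KO, 5 and 10 in Nono KO, and 4 and 6 in Sox5 KO, with medians of -0.22, -0.55 and -0.10. These calls made up 64.7%, 88.2% and 58.8% of the list, beside 45.5%, 48.6% and 60.9% of all tested genes. Dusp6, an ERK phosphatase gene, fell in all 3 knockouts (-0.88, -1.15 and -1.56), and so did Dusp10, a JNK and p38 phosphatase gene (-1.86, -1.09 and -0.50). Dusp1, itself an immediate-early phosphatase gene, rose by 0.36, 1.28 and 1.20. Spry1, an inhibitor of receptor signalling, rose by 2.57, 4.06 and 1.40.

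Of 19 tested genes that textbooks give as AP-1 or Egr targets, 8 were higher and 6 lower in Xap5 KO, 5 and 4 in Nono KO, and 8 and 7 in Sox5 KO, with medians of 0.29, 0.11 and -0.15. Shares called of 73.7%, 47.4% and 78.9% stood beside 45.5%, 48.6% and 60.9% of all tested genes. The stromelysin gene Mmp3 was at 0 counts in both WT libraries and at a mean of 98.3, 23.3 and 67.2 CPM in Xap5, Nono and Sox5 KO. Against a floor of 3 counts per WT library it was at least 1380-fold, 327-fold and 943-fold higher. Plau, which encodes urokinase, rose in all 3 knockouts, by 1.83, 2.22 and 1.81. Mmp3 and Plau were picked by their number of calls and size of change. Of the 19 genes, 6, 4 and 7 were lower in Xap5, Nono and Sox5 KO. A link of these genes to the lower Jun and Junb was not tested.

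**Figure D4:**
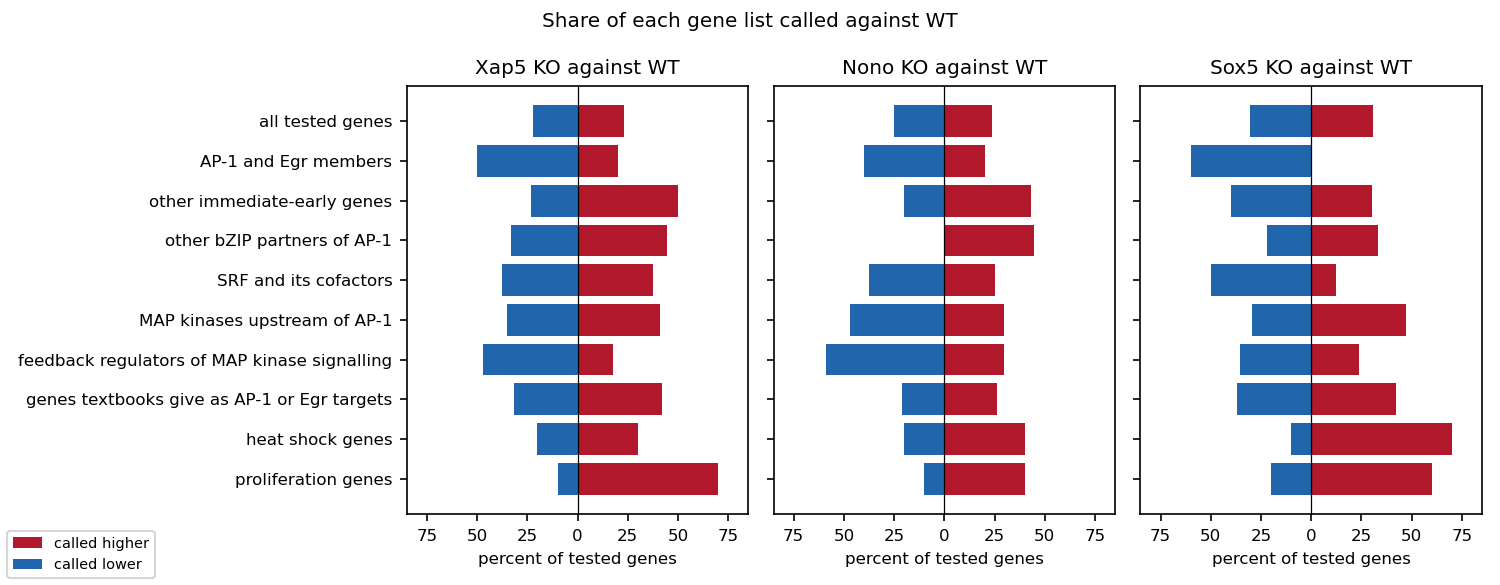
Percent of the tested genes of each list called higher (right of 0) or lower (left of 0) than WT at an adjusted p under 0.05 in edgeR's quasi-likelihood test, in Xap5, Nono and Sox5 KO, with all tested genes in the top row. Of the 10 members 5, 4 and 6 are lower, beside 22.3%, 25.1% and 30.3% of all tested genes.

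Stress and growth genes differed between the groups as well. Heat shock genes summed to 2667 to 2727 CPM in WT, 2751 to 3048 in Xap5 KO, 3107 to 3256 in Nono KO and 3865 to 4088 in Sox5 KO, the group in which Fos was lowest. Of 10 heat shock genes, 7 were higher and 1 lower in Sox5 KO, against 3 and 2 in Xap5 KO and 4 and 2 in Nono KO, with medians of 0.53, -0.01 and 0.20 in that order. The shares called in Xap5, Nono and Sox5 KO were 50%, 60% and 80%, beside 45.5%, 48.6% and 60.9% of all tested genes. The 5 called in Xap5 KO became 1 without WT replicate 2, and 2 without WT replicate 1, without Xap5 KO replicate 2 or with library totals alone. Proliferation genes summed to 431 to 499 CPM in WT and 731 to 829 in Xap5 KO, the group in which Atf3 was lowest, with 451 to 627 in Nono KO and 513 to 549 in Sox5 KO. Of 10 proliferation genes, 7 were higher and 1 lower in Xap5 KO, 4 and 1 in Nono KO, and 6 and 2 in Sox5 KO, with medians of 1.124, 0.39 and 0.51. Here the shares called were 80%, 50% and 80%, beside the same shares of all tested genes. Without WT replicate 2 the number called was 4 in Sox5 KO and 3 in Nono KO, and it was also 3 in Nono KO without Nono KO replicate 1 or in the 2-group fit. The part of these states, of the cell type markers and of the mitochondrial share in the changes of the 10 members was not tested.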

How the data were processed

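RNA-seq gene counts of 11 NIH/3T3 libraries were analysed. The authors deposited 1 table of whole numbers per gene and library, per the file headers, and they were read here as estimated counts in rounded form. A plain count of reads would hold more values of 1 than of 2, but 857 values were 1 and 3302 were 2. Separate counting of read mates, which would make the depths count mates, cannot be told apart from this. The submitters' processing notes name HISAT2 2.1.0, StringTie 1.3.3b, DESeq2 1.12.4 and the build GRCm39 (mm39). Annotation and strand handling are not given in the sources used here. The labels' protocols give a NEBNext Ultra II RNA library kit.

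Genes were kept by edgeR's expression filter (minimum count 10, minimum total 15), scaled with TMM factors, and fitted over all 11 libraries with 1 mean per group by edgeR 4.0.16 (robust quasi-likelihood test) in R 4.3.3. Benjamini-Hochberg adjustment ran over the 13332 tested genes. SEs were derived from the fold change and its F statistic. CPM was computed from the counts on the TMM-scaled totals, and levels per kb used exon lengths from GENCODE M21 (GRCm38), which also gave chromosomes and overlaps. Where no library of a group exceeded 3 counts, the fold is a bound against 3 counts per library. Such bounds cover counting error only. Total counts per library were 30205878 to 43498383, and counts were lowest for Fos and Fosb, at 159 or less.

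The members and gene lists were chosen with earlier results of these data known. All members were named, and up to 4 genes of each list were picked by the number of knockouts in which they were called and the size of the change, of which those bearing on the results are given. Alternatives were DESeq2 1.42.0, other scalings and filters, 2-group fits, each library left out, a replicate block, and an offset for GC content and transcript length. The fit was tested on simulated data.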

Additional observations from a re-analysis of the deposited data

How the results depend on the processing

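Over the 10 members and 6 comparisons, 1152 alternative values kept their direction and their side of the threshold, 44 lost a call, 19 gained one and 39 changed sign. The calls that held under every alternative were those of Atf3, Fosl2, Jun, Junb and Jund in Xap5 KO, of Fosl2, Jun, Junb and Jund in Nono KO, and of Egr1, Fos, Jun and Junb in Sox5 KO. Fos did not pass the filter of 10 counts in every library, so it was not tested under that alternative. Asking for a 2-fold change as well left 2, 2 and 3 members against WT and 3, 2 and 3 between Xap5 and Nono, Xap5 and Sox5, and Nono and Sox5 KO. Over all tested genes it left 1370, 1491, 2289, 1474, 1995 and 2269. Scaling by library totals alone shifted the all-gene median by -0.16 for Nono KO and -0.11 for Sox5 KO. In WT it gave levels per kb of 20.3 for Fosl1, 13.4 for Fosl2, 115.6 for Jun, 40.0 for Junb, 61.6 for Jund and 19.2 for Egr1, and the longest transcript gave 0.873 for Fosb, 20.8 for Fosl1, 18.7 for Fosl2 and 47.8 for Junb.

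Of the values that changed sign, those of Fosl2 and Jdp2 in Sox5 KO were called under the offset, and the cause was not tested. With the offset, and with the offset and the replicate block, they were 0.42 and 0.41 for Fosl2 in Sox5 KO, 0.012 and 0.013 for Egr1 in Nono KO, -0.107 and -0.106 for Atf3 in Sox5 KO, -0.231 and -0.240 for Jdp2 in Sox5 KO, 0.00061 and 0.016 for Mrtfb in Xap5 KO, 0.011 and 0.00013 for Egr2 and 0.066 and 0.051 for Fosl1 in Xap5 against Nono and Sox5 KO. With library totals alone they were -0.013 for Jund, -0.113 for Jdp2 (both Sox5 KO), -0.034 for Hspd1 in Nono KO, 0.104 for Egr2 in Xap5 against Nono KO and -0.019 for Egr2 in Nono against Sox5 KO. Jdp2 in Sox5 KO was also at -0.0049 without mitochondrial genes in the totals and without a filter, -0.012 with 10 counts in every library and -0.0051 in the 2-group fit. Junb in Xap5 against Sox5 KO was at -0.0093 with DESeq2, -0.0056 with upper-quartile factors and -0.0027 without mitochondrial genes or a filter.

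Leaving out 1 library at a time also changed the sign of some values. Against WT the ranges were -0.47 to 0.25 for Fos in Xap5 KO, -0.51 to 0.21 for Fos, -0.31 to 0.020 for Atf3 and -0.15 to 0.0095 for Elk3 in Nono KO, and -0.0050 to 0.18 for Jund, -0.045 to 0.036 for Jdp2 and -0.019 to 0.31 for Top2a in Sox5 KO. For Xap5 against Nono KO they were -0.17 to 0.31 for Fos, -0.094 to 0.35 for Fosl1 and -0.17 to 0.12 for Egr2. For Xap5 against Sox5 KO they were -0.0037 to 0.81 for Fosb, -0.048 to 0.039 for Junb and -0.13 to 0.16 for Egr2, and for Nono against Sox5 KO -0.064 to 0.14 for Egr2.

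Any pairing of the libraries by replicate number was weak. Deviations of same-numbered libraries correlated at -0.023 to 0.046 across genes, and those of differently numbered libraries at -0.046 to 0.017. With the replicate block, 7, 5 and 6 members were called in Xap5, Nono and Sox5 KO: Egr2 was lost in Xap5 KO and Nono KO, and Fosl1 was gained in Xap5 KO. Jdp2 in Sox5 KO was at -0.0031. Counts were lowest for Fos, at 4 to 122 per library.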
